A study of Bos taurus with 14 samples.

Results

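In bovine embryos on Day 4 after fertilisation, 107 of 27607 measured genes set embryos from the oviduct of dried-off cows (DRY) apart from embryos of both other Day-4 groups. The genes were chosen by their values. In CPM, the count of a gene per 1000000 counts of its library, the 3 DRY values lay all at least 2-fold above, or all at least 2-fold below, the 6 values of the in vitro culture (IVC) and lactating-cow (LACT) groups. Every value on the higher side reached 5 CPM, the mean of the lower side reached 0.5 CPM, the Day-2 mean reached 1 CPM, and genes at 150 CPM or more in all 14 libraries were left out, as were the genes the study tabulated singly, listed histone genes and a block of 41 consecutive identifiers. The level was higher in DRY for 48 genes and lower for 59. The separation of DRY is therefore a description, with no test.

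The study asked how the surroundings of the embryo during genome activation change its transcripts. All embryos were produced in vitro from abattoir oocytes and the sperm of a single bull, and RNA was sequenced from pools of 5 embryos. Day-2 embryos had 4 cells (5 pools) and Day-4 embryos had 16 cells (3 pools per group). IVC embryos stayed in synthetic oviduct fluid, whereas LACT and DRY embryos were placed on Day 2 in the oviduct of Holstein-Friesian cows in their first lactation, which were either milked after calving or dried off at once. Each in vivo pool came from a single cow, so a difference between DRY and LACT rests on 3 cows per group, and fewer cells and less RNA per cell cannot be told apart in a pool.

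An early bovine embryo lives at first on transcripts that the oocyte stored. These maternal transcripts are cleared while the embryonic genome is switched on, in a major wave that falls between the stages sampled here. A transcript that is higher in one Day-4 group may therefore stand above or below its Day-2 level, and the Day-2 libraries show which. The deposited table names genes by Ensembl identifier and does not pair them with symbols, so the oviduct, cumulus and blood markers that would check the embryo pools could not be read. What the proteins are is given only where the study's own tables list an identifier under a functional term, which was the case for 44 of the 107 genes.

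Library totals ran from 22711367 to 40357379 counts, so that 3 counts equalled 0.0743 to 0.132 CPM. The 10 genes of highest counts took 40.6% to 46.8% of the Day-4 totals and 11.0% to 19.6% of the Day-2 totals. One library in each Day-4 group lay between the other two. Among genes averaging 5 CPM or more in their group, IVC replicate 1 was within the range of the other IVC libraries for 98.6% of genes, DRY replicate 3 for 97.5% and LACT replicate 3 for 98.5%. Their values were within 5% of the mean of the other two for 92.0%, 83.2% and 97.1% of genes. No Day-2 library came within 5% of the mean of any pair of other Day-2 libraries for more than 11.1% of genes. The median squared deviation of these 3 libraries from a weighted mean of the other two was 0.0158 (IVC), 0.0879 (DRY) and 0.0156 (LACT) of the counting variance, against 0.455 for independently counted libraries. The labels and methods describe each as a separate pool and give no reason for this closeness. The spread over 3 libraries is then smaller than the spread over 2, so no SD is given for Day-4 groups. The SE of single genes, and their FDR unless stated, come from a fit that counts all libraries as separate, and so overstate the precision. Each count of calls is followed by the count from a fit without these 3 libraries. Without them the rule chose the same 48 higher and 59 lower genes, which says little of stability, since the rule reads the extreme values of each group and these libraries were seldom extreme.

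Summed over the 48 higher genes, the level was 1294 to 1303 CPM in DRY, 161 to 211 CPM in IVC and 261 to 270 CPM in LACT. On Day 2 the same genes summed to 1137 to 1400 CPM. Summed over the 59 lower genes, the level was 405 to 408 CPM in DRY, against 1698 to 1891 CPM in IVC, 1656 to 1765 CPM in LACT and 3163 to 3739 CPM on Day 2. As sums over the genes chosen, these values restate the rule for the Day-4 groups, while the Day-2 sums entered it only through the minimum. The ratio of the DRY mean to the mean of IVC and LACT had a median of 6.72 over the higher genes (2.38 to 17.6). The inverse ratio had a median of 5.67 over the lower genes (2.26 to 27.7).

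**Figure D1:**
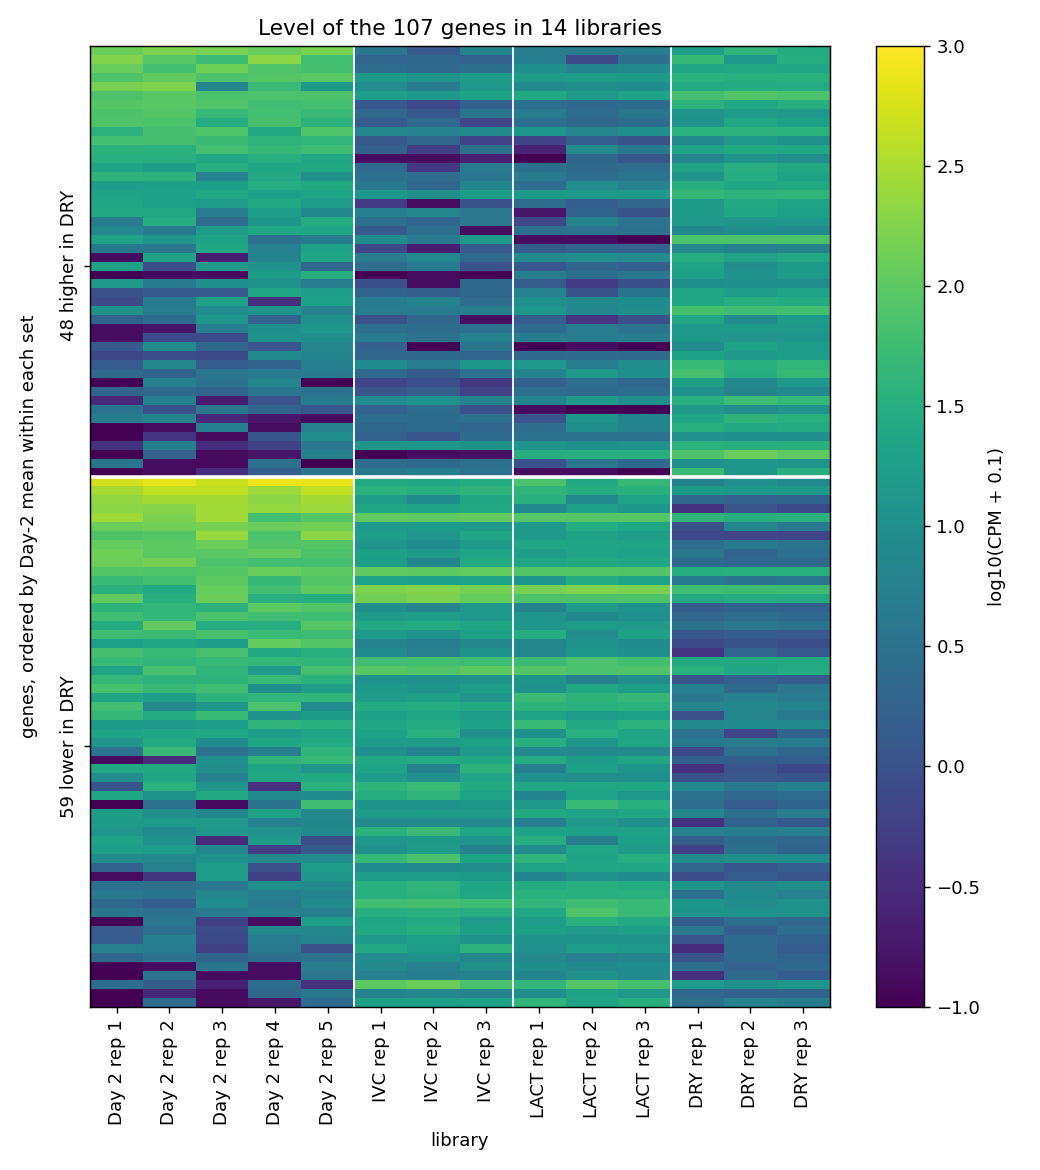
Level of the 107 genes (rows, ordered by Day-2 mean within each set) in the 14 libraries (columns), as log10(CPM + 0.1) in colour. The 48 genes above the horizontal line are brighter in the 3 DRY columns than in the 6 IVC and LACT columns, the 59 below it are darker there, and the Day-2 columns run from bright to dark within both sets.

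Close to the limit, the gap between the lowest value of the higher side and the highest value of the lower side was 2.00-fold, 2.10-fold and 2.10-fold for the 3 higher genes just inside it, and 1.99-fold, 1.98-fold and 1.97-fold for the 3 just outside. For the lower genes these gaps were 2.00-fold, 2.01-fold and 2.02-fold inside, and 1.99-fold, 1.98-fold and 1.98-fold outside. A gap of at least 3-fold was found for 13 higher and 26 lower genes. The same rule with another group apart chose 99 genes for IVC (47 higher, 52 lower) and 101 for LACT (79 higher, 22 lower). Of the genes that met the level conditions, 0.853% were higher and 1.13% lower in DRY, 0.819% and 1.02% in IVC, and 1.32% and 0.437% in LACT. DRY thus had the most genes apart in all, LACT the most higher genes and DRY the most lower genes, in counts that were not tested against each other.

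The higher genes fell into 3 placements against Day 2. The Day-2 mean lay above both DRY and the other groups for 17 genes, between them for 20 and below both for 11. Among the 17 genes the median level was 57.4 CPM on Day 2, 23.6 CPM in DRY, 2.23 CPM in IVC and 3.45 CPM in LACT, in an order that the rule and the placement fix. Among the 11 genes it was 2.09 CPM on Day 2, 33.1 CPM in DRY, 2.74 CPM in IVC and 6.39 CPM in LACT. Here too the order of Day 2, DRY and the mean of IVC and LACT was fixed. On the log scale, DRY was the nearer to Day 2 for 27 of the 48 genes (56.2%). Placements of both sets were read from CPM. The fit against Day 2 described below scales libraries differently (TMM). In it, 34 of the 48 genes had a positive log2 fold change in DRY and 14 a negative one. The placement of some genes near their Day-2 level thus depends on the scaling.

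For the lower genes, the Day-2 mean lay above both sides for 27 of the 59 genes, between them for 23 and below both for 9. Among the 27 genes the median level was 58.1 CPM on Day 2, 16.3 CPM in IVC, 18.1 CPM in LACT and 2.27 CPM in DRY, again in a fixed order. Among the 9 genes it was 4.37 CPM on Day 2, 32.1 CPM in IVC, 31.7 CPM in LACT and 8.78 CPM in DRY, with the order of Day 2, DRY and the other groups fixed likewise. DRY was the nearer to Day 2 for 18 of the 59 genes (30.5%). By definition, a Day-2 mean above both sides makes DRY the nearer for a higher gene and the farther for a lower gene. The shares of the higher and lower sets therefore differ in part by construction. For genes chosen with IVC apart, IVC was the nearer for 23 of 47 higher and 11 of 52 lower genes, and with LACT apart, LACT was the nearer for 45 of 79 and 8 of 22. The share was thus smaller for the lower than for the higher genes whichever group was apart. These shares were not tested against each other.

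**Figure D2:**
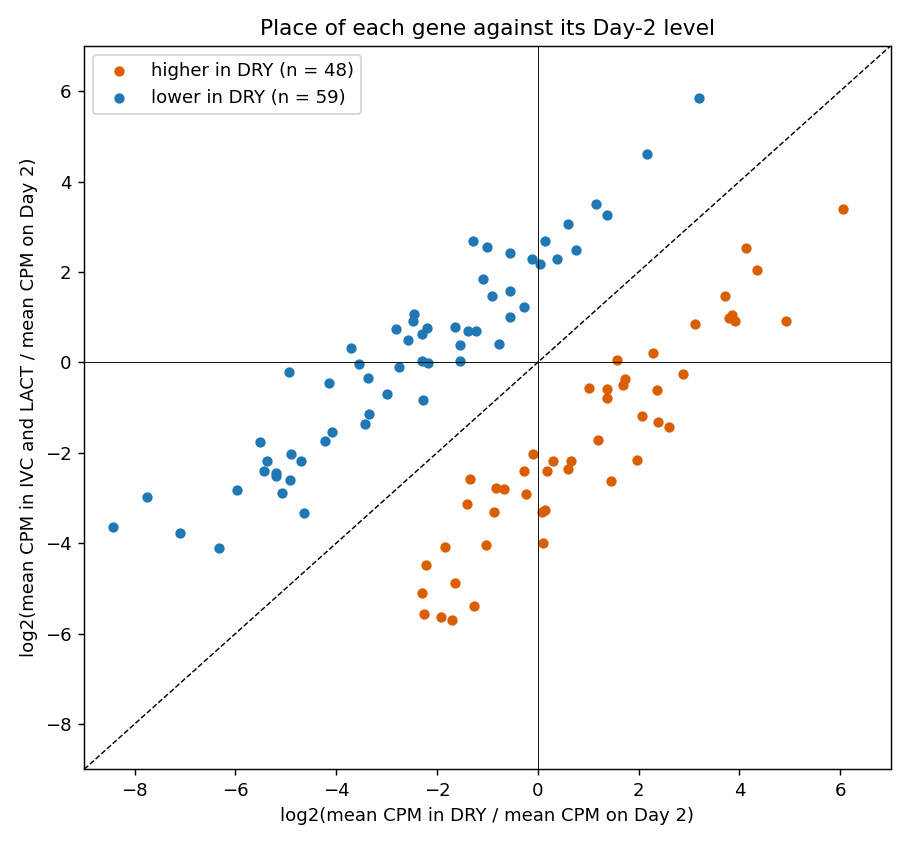
Each of the 107 genes by log2 of its DRY mean over its Day-2 mean (horizontal) and log2 of its IVC and LACT mean over its Day-2 mean (vertical), with equal values on the dashed line. Of the 48 genes higher in DRY, 17 have negative values on both axes and 11 have positive values on both, and of the 59 lower genes 27 have negative and 9 positive values on both.

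Each Day-4 group was compared with Day 2 by the quasi-likelihood test of edgeR over 13390 genes, and a false discovery rate (FDR, adjusted after Benjamini and Hochberg) under 0.05 was called. The 3 comparisons share the Day-2 libraries, and the Day-4 libraries in them also chose the genes. The counts, and the FDR of single genes against Day 2 given below, therefore locate the genes against Day 2. Nothing more is read from them. In DRY, 14 of the 48 higher genes were called above Day 2, 6 below and 28 were not called, while over all genes tested 54.0% were called, 27.4% above and 26.6% below. In IVC, 3 were above and 22 below, beside 29.7% and 25.2% of all genes (54.9% in all). In LACT, 5 were above and 24 below, beside 29.7% and 23.7% of all genes (53.4% in all). The median log2 fold change of the 48 genes was 1.26 in DRY, -1.97 in IVC and -2.09 in LACT, against all-gene medians of -0.09, 0.08 and 0.17.

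Of the 59 lower genes, 3 were called above Day 2 and 31 below in DRY, 16 above and 16 below in IVC, and 17 above and 17 below in LACT. Their median log2 fold change was -2.02 in DRY, 0.52 in IVC and 0.53 in LACT. Without the 3 in-between libraries, the genes called above and below Day 2 numbered 8 and 2 in DRY, 1 and 14 in IVC, and 1 and 16 in LACT for the higher set. For the lower set they numbered 2 and 24, 12 and 11, and 8 and 10. Over all 13908 genes tested, that fit called 36.0% in DRY (19.5% above, 16.5% below), 37.4% in IVC (21.9% and 15.5%) and 36.7% in LACT (21.6% and 15.2%).

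Read gene by gene, 13 of the higher genes were called below Day 2 in IVC and in LACT with no call in DRY, and 10 were so without the in-between libraries. A further 6 were called below Day 2 in all 3 groups (2 without those libraries). Another 6 were called above Day 2 in DRY with no call in IVC or LACT (5 without those libraries), and 3 were called above it in every group (0 without them). Among the lower genes, 16 were called below Day 2 in all 3 groups and 14 in DRY with no call in IVC or LACT (9 and 12 without those libraries). For 12 lower genes IVC and LACT were called above Day 2 and DRY was not (6 without those libraries), and 3 were above it in every group (2 without them). A call in one group and none in another does not show that the groups differ, and these patterns were not tested as such. The share of all tested genes with each pattern was not counted, so the numbers are not read as a trait of these genes.

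The widest gap among the higher genes, 8.93-fold, belonged to ENSBTAG00000009686, for which no term was listed. Its level was 38.9, 25.2 and 31.7 CPM in DRY replicates 1 to 3, 1.11, 0.675 and 1.67 CPM in IVC, and 2.82, 2.24 and 2.51 CPM in LACT. On Day 2 it was 88.8, 90.1, 82.8, 58.7 and 62.9 CPM. Every Day-2 library was thus above every DRY library, and the rule put all DRY libraries above all IVC and LACT libraries. Against Day 2 its log2 fold change was -5.71 ± 0.50 (SE) in IVC, -4.61 ± 0.47 in LACT and -0.91 ± 0.38 in DRY. The gene was named for its gap, which the Day-4 values set, so these changes are given with no test.

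The same order, with the transcript highest on Day 2 and next highest in DRY, was seen for genes with listed terms. ENSBTAG00000000905, under the keyword methylation, which marks proteins that carry methyl groups, had 78.5, 73.4, 29.6, 68.1 and 37.6 CPM on Day 2. Its level was 11.3, 25.3 and 18.7 CPM in DRY, 1.37, 2.19 and 0.616 CPM in IVC, and 2.75, 2.34 and 2.51 CPM in LACT. No DRY library overlapped with Day 2. ENSBTAG00000018909, under zinc finger, a fold common in proteins that bind DNA or RNA, had 177, 90.5, 54.7, 203 and 62.3 CPM on Day 2 and 48.5, 13.5 and 31.5 CPM in DRY. In IVC it had 1.89, 2.16 and 1.63 CPM and in LACT 4.99, 0.734 and 2.88 CPM. Its DRY libraries spread 3-fold or more, and that all of them lay above every IVC and LACT library follows from the rule.

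For ENSBTAG00000021127, under nucleotide binding, IVC held almost no reads. Its level was 34.0, 32.7, 23.0, 33.8 and 24.5 CPM on Day 2 and 6.42, 11.8 and 9.27 CPM in DRY. In LACT it was 0, 2.14 and 1.07 CPM, and IVC had 1, 1 and 3 counts in its libraries. The gene was named for the largest fall from Day 2 to IVC and LACT among the higher genes. Its log2 fold changes against Day 2, -8.39 in IVC, -4.56 in LACT and -1.37 in DRY, are therefore given with no test.

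ENSBTAG00000031335 was the member listed under DNA repair, cell division and mitosis, the processes that keep the genome intact and share it between daughter cells. It had 14.7, 4.43, 10.3, 10.8 and 4.72 CPM on Day 2 and 9.77, 10.2 and 9.87 CPM in DRY. In IVC it had 0.851, 0.0338 and 2.07 CPM and in LACT 1.37, 0.401 and 0.863 CPM. The DRY values lay inside the Day-2 range, and those of IVC and LACT below all of it. ENSBTAG00000003614, under protein transport, had 19.5, 0.774, 14.7, 10.9 and 2.10 CPM on Day 2 and 20.8, 9.49 and 15.1 CPM in DRY. In IVC it had 2.63, 4.42 and 0.969 CPM and in LACT 1.14, 2.00 and 1.56 CPM, so that both groups lay within the wide Day-2 range.

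Other higher genes stood above Day 2. ENSBTAG00000014653, listed under mitochondrion and mitochondrion inner membrane, the membrane that carries the respiratory chain, had 0.288, 5.14, 0.232, 0.503 and 3.76 CPM on Day 2. It reached 12.1, 13.3 and 10.8 CPM in IVC, 11.8, 10.2 and 10.9 CPM in LACT, and 36.4, 33.8 and 34.7 CPM in DRY. All Day-4 libraries were above all Day-2 libraries. The log2 fold change against Day 2 was 4.59 ± 0.87 in DRY (FDR = 0.000541), 3.07 ± 0.83 in IVC (FDR = 0.00625) and 2.88 ± 0.83 in LACT (FDR = 0.00928), by edgeR's quasi-likelihood test (Benjamini-Hochberg). Without the in-between libraries the FDR in LACT was 0.0524 and the other two calls stayed under 0.05.

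A pair of other mitochondrial genes was also higher in DRY. ENSBTAG00000001781 had 52.0, 34.7 and 42.8 CPM in DRY, 8.69, 4.62 and 13.2 CPM in IVC, 13.7, 4.84 and 9.21 CPM in LACT, and 1.36 to 6.65 CPM on Day 2. ENSBTAG00000002921 had 45.2, 37.8 and 41.0 CPM in DRY, 13.3, 9.59 and 17.2 CPM in IVC, 14.9, 13.8 and 14.3 CPM in LACT, and 18.1 to 24.7 CPM on Day 2. The first was called above Day 2 in all groups, with an FDR of 0.00011 in DRY, 0.0202 in IVC and 0.0177 in LACT by edgeR's quasi-likelihood test (Benjamini-Hochberg). Without the in-between libraries its IVC and LACT calls were lost (FDR = 0.107 and 0.0991). The second was called only in DRY (log2 fold change 1.37 ± 0.35, FDR = 0.00457), and without those libraries its FDR was 0.0629. The DRY values in these tests also chose both genes, so the calls only place them against Day 2.

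**Figure D3:**
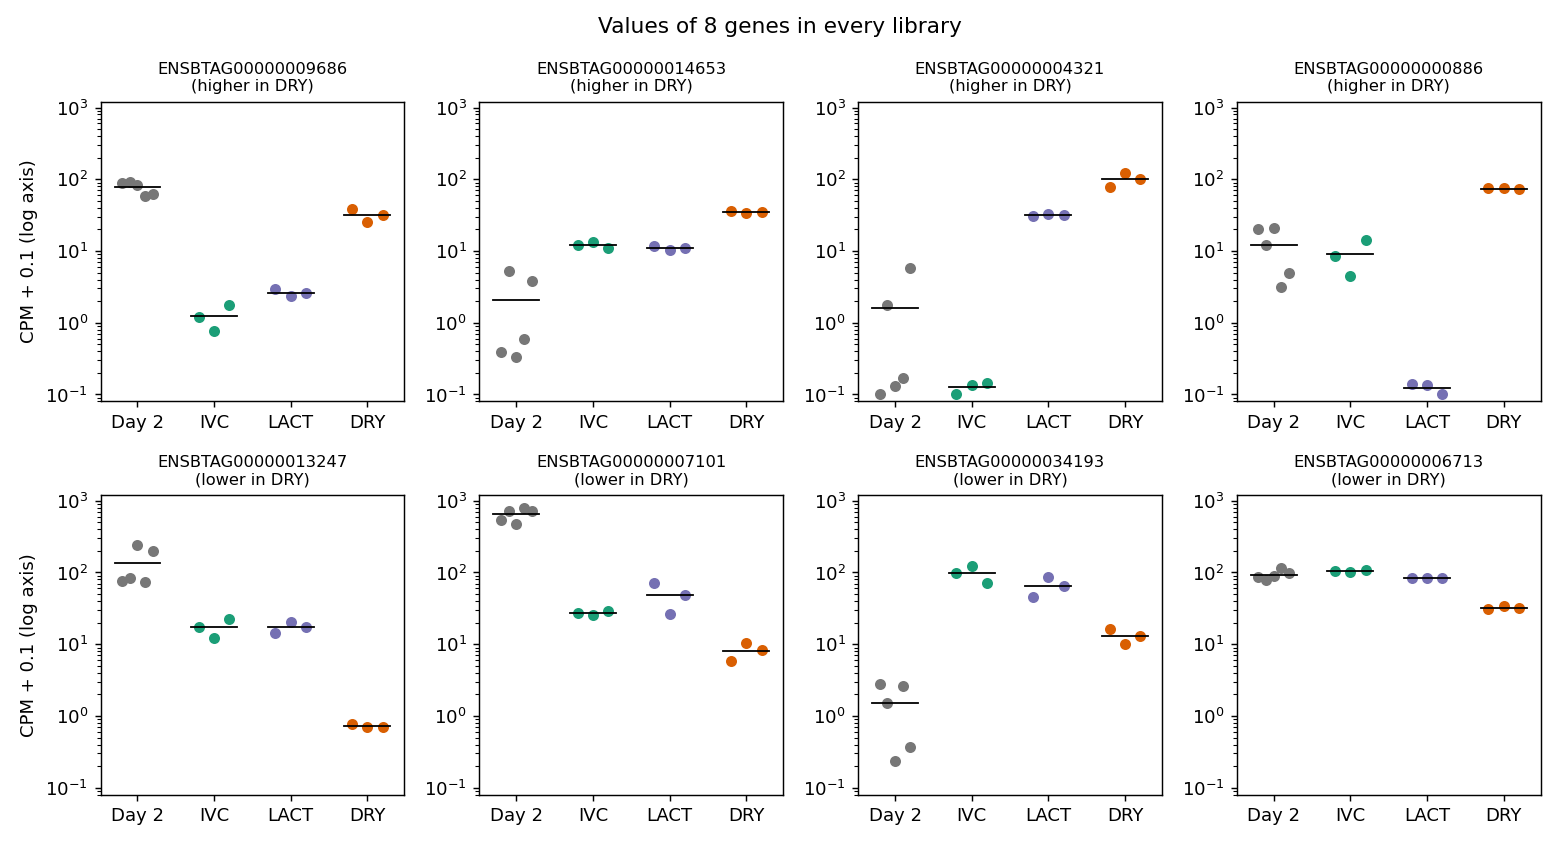
CPM + 0.1 (log axis) of 8 of the genes in each library, with points for libraries and a line at the mean of each group. In the upper row the 3 DRY points lie above all IVC and LACT points and in the lower row below them, and for ENSBTAG00000004321 and ENSBTAG00000000886 the IVC or the LACT points sit near the bottom of the axis.

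Among the lower genes, the widest gap, 18.0-fold, was that of ENSBTAG00000013247, listed under mitochondrion, cytosol and nucleus. It had 0.671, 0.595 and 0.597 CPM in DRY, 17.1, 12.1 and 22.4 CPM in IVC, and 14.1, 20.3 and 17.2 CPM in LACT. On Day 2 it had 75.0, 84.7, 240, 74.4 and 199 CPM. The transcript was thus below Day 2 in every Day-4 library, and lowest in DRY by the rule. The log2 fold change against Day 2 was -7.36 ± 0.58 in DRY, -2.58 ± 0.45 in IVC and -2.63 ± 0.45 in LACT. The gene was named for its gap, which the Day-4 values set, so these changes are given with no test.

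ENSBTAG00000016679, listed under mitochondrion, transit peptide (the leader that directs a protein into the organelle) and oxidoreductase, had the same order. Its level was 1.12, 1.41 and 1.23 CPM in DRY, 14.4, 11.0 and 17.8 CPM in IVC, 30.2, 8.91 and 19.5 CPM in LACT, and 52.1 to 68.1 CPM on Day 2. ENSBTAG00000007101, under the keyword for repeated sequence units, was the lower gene that stood farthest below Day 2 in IVC and LACT. It went from 538, 713, 470, 781 and 729 CPM on Day 2 to 27.2, 25.3 and 28.8 CPM in IVC, 70.3, 26.1 and 48.1 CPM in LACT, and 5.65, 10.3 and 8.08 CPM in DRY. No library of one stage overlapped with the other stage for either gene. ENSBTAG00000013941, under the armadillo-type fold of helical repeats that bind other proteins, had 35.3 to 49.4 CPM on Day 2, 11.1, 11.4 and 10.7 CPM in IVC, 12.8, 5.44 and 9.08 CPM in LACT, and 1.02, 1.73 and 1.37 CPM in DRY.

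Another oxidoreductase gene, ENSBTAG00000034193, was on the opposite side of Day 2. It had 2.73, 1.41, 0.133, 2.51 and 0.266 CPM on Day 2, 98.4, 124 and 72.2 CPM in IVC, and 44.7, 86.2 and 65.0 CPM in LACT. DRY reached 16.0, 10.1 and 12.9 CPM, above all Day-2 libraries and, by the rule, below all others. Its log2 fold change against Day 2 was 6.44 in IVC, 5.76 in LACT and 3.50 ± 0.73 in DRY. The gene was named for the largest rise from Day 2 to IVC and LACT among the lower genes. Its Day-2 values thus helped to choose it, and its changes in every Day-4 group, DRY included, are given with no test.

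In other lower genes DRY stayed near Day 2. ENSBTAG00000009665, listed under nucleoplasm and cytoplasm, had the highest mean in IVC and LACT, with 161, 172 and 147 CPM and 145, 165 and 155 CPM. DRY had 58.0, 54.3 and 55.5 CPM, within the Day-2 range of 28.0 to 112 CPM. ENSBTAG00000010337, of the endoplasmic reticulum membrane, where secreted and membrane proteins are made, had 6.93 to 10.9 CPM on Day 2 and 7.79, 9.81 and 8.75 CPM in DRY. It had 45.4, 71.5 and 20.7 CPM in IVC and 40.0, 21.9 and 30.9 CPM in LACT. For both genes DRY lay inside the Day-2 range and the log2 fold change in DRY, 0.11 ± 0.36 and 0.38 ± 0.45, was not called, whereas those in IVC (1.65 ± 0.36 and 2.81 ± 0.45) and LACT (1.54 ± 0.36 and 2.19 ± 0.44) were. These calls in IVC and LACT held without the in-between libraries.

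For ENSBTAG00000006713, of the endoplasmic reticulum and Golgi apparatus, IVC and LACT stayed near Day 2 instead. It had 77.7 to 117 CPM on Day 2, 106, 102 and 109 CPM in IVC, 83.7, 83.5 and 83.3 CPM in LACT, and 30.5, 33.8 and 31.9 CPM in DRY. The log2 fold change against Day 2 was -1.20 ± 0.24 in DRY (FDR = 0.0009), 0.54 ± 0.23 in IVC (FDR = 0.0573) and 0.15 ± 0.23 in LACT (FDR = 0.609) by edgeR's quasi-likelihood test (Benjamini-Hochberg). The FDR without the in-between libraries was 0.0359 in DRY, 0.22 in IVC and 0.765 in LACT. ENSBTAG00000003294, under ribosomal protein, ribonucleoprotein and transit peptide, had 2.97, 2.25 and 2.56 CPM in DRY, 30.5, 39.9 and 21.1 CPM in IVC, 6.25, 20.9 and 13.4 CPM in LACT, and 8.08 to 27.1 CPM on Day 2. Its call below Day 2 in DRY (log2 fold change -2.25 ± 0.63, FDR = 0.00824) was lost without the in-between libraries (FDR = 0.0919).

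Some Day-2 levels differed widely between pools. ENSBTAG00000013761, with the next widest gap among the lower genes at 10.01-fold, had 0.0360, 0.211, 10.2, 41.6 and 46.9 CPM on Day 2. It had 27.3, 29.8 and 24.5 CPM in IVC, 28.6, 16.6 and 22.5 CPM in LACT, and 1.66, 1.39 and 1.48 CPM in DRY. ENSBTAG00000053188, also under the armadillo-type fold, had 0.0360, 0.352, 15.6, 0.467 and 12.3 CPM on Day 2 and 0.766, 1.34 and 1.05 CPM in DRY. It had 15.8, 16.1 and 15.2 CPM in IVC and 6.29, 10.5 and 8.38 CPM in LACT. For both genes the DRY and LACT values lay within the Day-2 range, as did all IVC values but the 2 highest of the latter gene, and no comparison with Day 2 was called. The highest Day-2 library was at least 10 times the lowest for 19 of 48 higher and 15 of 59 lower genes, or 31.8% of the 107, beside 30.0% of the 10563 genes with a Day-2 mean of at least 1 CPM. DRY replicates 1 and 2 differed by a median of 1.43-fold over the higher genes (at most 3.96-fold) and 1.58-fold over the lower genes (at most 10.1-fold).

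IVC and LACT were compared with each other on the 9 Day-4 libraries, a contrast that the rule did not set directly. It placed both groups on the same side of DRY, and for the higher genes it asked that their joint mean reach 0.5 CPM. Of the 107 genes, 9 (8.41%) were called by edgeR's quasi-likelihood test (Benjamini-Hochberg), beside 8.43% of the 12069 genes tested (3.94% higher and 4.50% lower in LACT). Among the higher genes 4 were higher and 3 lower in LACT, and among the lower genes 1 was higher and 1 lower. Without the in-between libraries 2 of the 107 were called (1.87%), beside 0.429% of 12133 genes tested (0.264% higher, 0.165% lower). A higher gene with almost no reads in IVC or LACT could meet that minimum only through the other group, and so had to differ between them. There were 7 such genes, with at most 3 counts in every library of IVC or of LACT, and they made up 5 of the 9 calls and both calls of the smaller fit. Their values are given as a description, with no test.

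ENSBTAG00000004321, under the keyword acetylation, which marks proteins that carry acetyl groups, had the highest mean in DRY, with 76.7, 123 and 102 CPM. It had 30.9, 32.8 and 31.7 CPM in LACT and 0, 0.0338 and 0.0440 CPM in IVC, which was 0, 1 and 1 counts. On Day 2 it had 0, 1.69, 0.0332, 0.0718 and 5.72 CPM, so that both oviduct groups were above every Day-2 library and the culture group was within the Day-2 range.

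ENSBTAG00000000886, for which no term was listed, was nearly absent from LACT instead. It had 74.5, 74.6 and 73.4 CPM in DRY, 8.47, 4.42 and 14.1 CPM in IVC, and 1, 1 and 0 counts in LACT. On Day 2 it had 20.3, 11.9, 21.0, 3.02 and 4.79 CPM, a range that held the IVC values and lay below all DRY values.

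The low group was LACT for 4 of the 7 genes and IVC for 3, ENSBTAG00000021127 among the latter. ENSBTAG00000039035, listed under nucleus and cytosol, had a single count over the 3 LACT libraries, beside means of 1.78 CPM in IVC and 11.7 CPM in DRY. ENSBTAG00000011549, under coiled coil, a rod of wound helices that joins proteins, had a single count over the 3 IVC libraries, beside means of 3.67 CPM in LACT and 14.4 CPM in DRY. The lower genes that were called between LACT and IVC, ENSBTAG00000007433 (log2 fold change -1.01 ± 0.20, FDR = 0.0199) and ENSBTAG00000020226 (1.46 ± 0.33, FDR = 0.0297), were not called without the in-between libraries (FDR = 0.761 and 0.781).

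**Figure D4:**
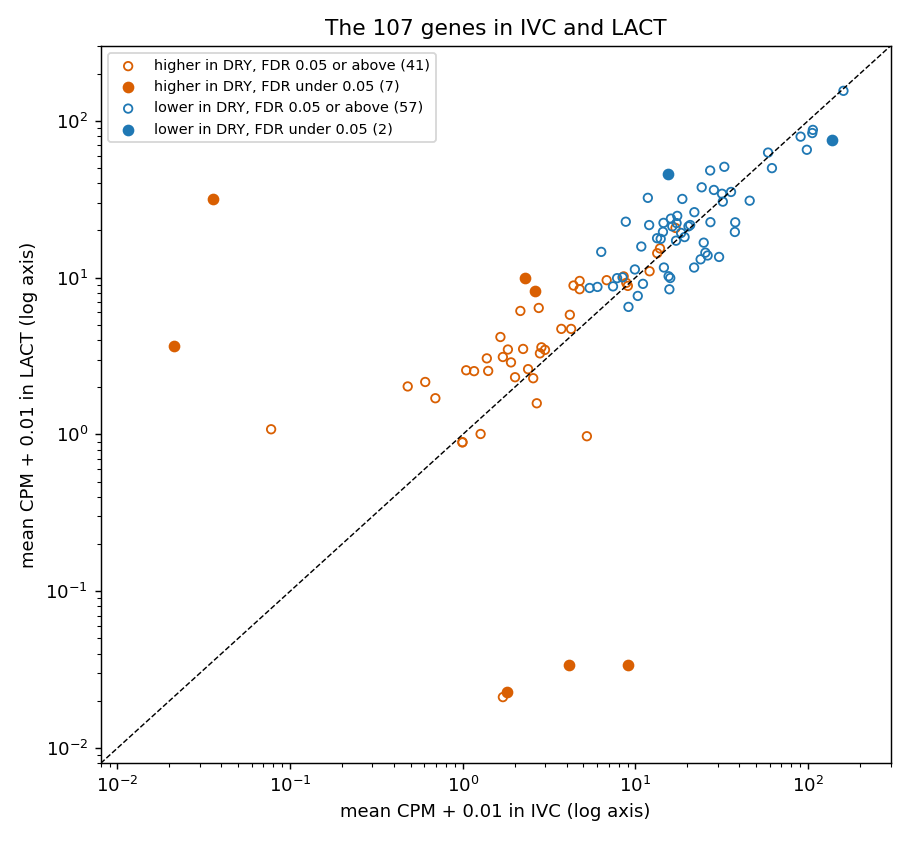
Mean level of each of the 107 genes in IVC (horizontal) and LACT (vertical), as CPM + 0.01 on log axes, with equal values on the dashed line and filled points for the 9 genes with an FDR under 0.05 between the groups. Most points follow the line, and the 7 genes with at most 3 counts per library in a group lie far to the left of it or far below it.

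The functional terms were read for the members and for the other genes listed under the same terms. These lists hold genes the study called on these same libraries, so their direction is not independent evidence. In the contrast of DRY with the mean of IVC and LACT, 6.06% of 12069 genes tested were called higher and 6.70% lower (12.8% in all), and the median over all of them was -0.01 on the log2 scale. Without the in-between libraries 0.684% of 12133 genes were called, 0.198% higher and 0.486% lower. Under mitochondrion, 3 members were higher and 2 lower, and of 83 other genes 18 were called higher and 9 lower (1 without those libraries), with a median of 0.13. Under zinc finger, 2 members were higher and none lower, and 19 of 90 other genes were called higher and 0 lower (0 of either without those libraries), with a median of 0.50. Under DNA repair, 1 member was higher, and 4 of 26 other genes were called higher and 0 lower (0 without those libraries), with a median of 0.52. The other zinc-finger member, ENSBTAG00000021222, had 10.4, 10.04 and 10.1 CPM in DRY, 1.66, 1.05 and 2.38 CPM in IVC, and 3.16, 3.07 and 3.08 CPM in LACT.

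For some terms with lower members more of the other genes were called lower than higher. Under oxidoreductase, the enzymes that pass electrons between molecules, 2 members were lower, and 17 of 38 other genes were called lower and 0 higher (2 without those libraries), with a median of -2.46. Under endoplasmic reticulum, 2 members were lower, and 17 of 78 other genes were called lower and 1 higher (1 without those libraries), with a median of -0.48. Under ribosomal protein, 1 member was lower, and 13 of 51 other genes were called lower and 0 higher (0 without those libraries), with a median of -0.51. Under armadillo-type fold, 2 members were lower, and 9 of 37 other genes were called lower and 0 higher (0 without those libraries), with a median of -0.49. Some broader terms with lower members went the other way, as under nucleus (the UniProt keyword), where 2 members were higher and 3 lower and 52 of 210 other genes were called higher and 21 lower (4 without those libraries), with a median of 0.49.

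Of the further terms with only higher members, a pair is given here. Under methylation, 1 member was higher, and 15 of 78 other genes were called higher and 0 lower (1 without those libraries), with a median of 0.30. Under protein transport, 1 member was higher, and 9 of 16 other genes were called higher and 0 lower (0 without those libraries), with a median of 1.55. In every term named here but nucleus, the calls dropped to at most 2 genes without the in-between libraries.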

How the data were processed

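The authors trimmed 100 bp single-end reads with Trimmomatic, aligned them to bosTau 9 with STAR 2.7.0b and counted them per Ensembl gene with featureCounts of Subread 2.0.3, and they deposited raw counts for 27607 genes in 14 libraries. The strand setting and annotation release are not given in the sources used here, so overlapping and antisense genes and near-identical copies cannot be told apart. Groups came from the labels. CPM used column totals. Genes at 1 CPM in at least 3 libraries were tested with edgeR 4.0.16 (TMM scaling, robust quasi-likelihood fit, R 4.3.3, limma 3.58.1), on 14 libraries against Day 2 and on 9 among Day-4 groups, with Benjamini-Hochberg adjustment. The SE of a log2 fold change was back-calculated as its absolute value over the square root of the quasi-likelihood F statistic. It is therefore approximate. DESeq2 1.42.0 was an alternative. The procedure was tested on simulated data. Nothing in the labels says which pools shared a culture run, so p-values measure the spread between these libraries. The genes and lists were chosen with earlier results of these data known.

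None of the 37063 RefSeq genes of the reference table carries an Ensembl identifier, so the lists, markers and promoter motifs planned by symbol were not used here, and terms from the study's supplementary tables (3312 genes) took their place after the values were seen. Named genes were, per direction, those with the widest gap, the highest mean, the lowest FDR between LACT and IVC, the largest rise or fall from Day 2, and those listed under a specific term or at most 3 counts in a group. Genes with neither symbol nor term were limited to 2 per direction. Listed histones were 23 identifiers under histone or nucleosome terms. Of genes meeting the rule, 2 were left out as tabulated or listed. No columns of the authors' own comparisons were used.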

Additional observations from a re-analysis of the deposited data

Results flagged for a closer look

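For ENSBTAG00000021222, a zinc-finger gene higher in DRY, Day-2 replicate 5 had 8.95 CPM and the other Day-2 libraries 0 to 1.08 CPM, a gap too wide for the spread of that group by Dixon's criterion. It was the single library set apart in this way among 30 named genes, and chance alone sets apart about 1 in 20 such groups. Its DRY values of 10.4, 10.04 and 10.1 CPM lay above that library. The cause was not tested.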

How the results depend on the processing

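The number of genes with DRY apart depends on the limit: 13 higher and 26 lower at 3-fold, 119 and 137 at 1.5-fold. Leaving out a single Day-4 library gave 47 to 140 higher and 59 to 94 lower genes, the most without DRY replicate 1 (140), DRY replicate 2 (112) and LACT replicate 1 (94). CPM after TMM scaling gave 53 and 60, of which 46 and 51 were shared. For LACT against IVC, 1018 genes and 9 of the 107 were called. These became 2345 and 20 with DESeq2, 52 and 2 without the in-between libraries, 456 and 4 in a fit on 14 libraries, and 202 and 5 at an FDR under 0.01. Leaving out a library gave 120 to 1513 and 4 to 10, with 120 and 4 without IVC replicate 1, 126 and 4 without LACT replicate 3, 409 genes without IVC replicate 2, 461 without DRY replicate 3 and 531 without LACT replicate 2. For DRY against the mean of IVC and LACT, 1540 genes became 2973 with DESeq2, 83 without the in-between libraries, 730 on 14 libraries, 417 at an FDR under 0.01 and 349 to 1468 on leaving out a library (349 without DRY replicate 3, 603 without LACT replicate 3, 631 without IVC replicate 1). Against Day 2, 63 of the 107 called in LACT became 35 without the in-between libraries, beside 7153 and 5111 of all genes. On leaving out a library, 48 to 57 of the 107 were called in DRY, 49 to 59 in IVC and 51 to 63 in LACT. Of all genes, 6065 to 7202, 6073 to 7454 and 5969 to 7259 were then called. None of the 54 called values of genes under the naming rule changed sign in these or the other alternatives, and 34 of them stayed called without the in-between libraries. Scaling by DESeq2 size factors moved the all-gene median log2 fold change against Day 2 from -0.09 to 0.05 in DRY, 0.08 to 0.24 in IVC and 0.17 to 0.32 in LACT. Replicate numbers did not pair the libraries, as the correlations of deviations over 18 same-numbered pairs ran from -0.05 to 0.09. With replicate number as a block, LACT against IVC called 489 genes and 6 of the 107, and DRY against the mean of the other groups 857 genes. The comparisons with Day 2 then called 56, 60 and 60 of the 107 in DRY, IVC and LACT, beside 6493, 6691 and 6480 of all genes. The causes of these changes were not tested beyond the settings named.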
